A study of Mus musculus with 14 samples.

Results

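DNA methylation in mouse cells is written, copied and removed by a small set of proteins, and 9 of their genes were followed here through the conversion of embryonic stem cells (ESCs) into extraembryonic endoderm stem cells (XEN cells). The genes are Dnmt1, Uhrf1, Dnmt3a, Dnmt3b, Dnmt3l, Tet1, Tet2, Tet3 and Tdg. They were taken by symbol from the deposited expression table of 23174 gene rows, where each of the 9 had a single row.

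Dnmt1 is the maintenance methyltransferase, which copies CpG methylation onto the new strand after replication, and Uhrf1 brings it to hemimethylated sites. Dnmt3a and Dnmt3b are de novo methyltransferases, and Dnmt3l is their catalytically inactive partner. Tet1, Tet2 and Tet3 are dioxygenases that oxidise 5-methylcytosine, and Tdg is the glycosylase that excises the more oxidised bases so that base excision repair can restore cytosine. Mouse ESCs are known for high Tet1 and Tet2, and extraembryonic lineages for lower DNA methylation than the embryo proper. Zfp281, the zinc finger transcription factor removed in this study, has been reported to act with Tet1 and to repress Tet2 in ESCs.

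The data are 14 poly(A) RNA-seq libraries from 6 cell lines of 129S1/SVImJ background (129S1 for XENB1). The wild-type line WT3, the knockouts of Zfp281 named KO3.34 and KO2.6, and Rescue3.34, which is the KO3.34 line with Zfp281 restored, each gave 1 library at 3 stages. The stages were ESCs in serum with LIF, chemically converted cells at passage 1 (cXENp1, after 48 hours in XEN medium with 0.01 µM all-trans retinoic acid and 10 ng/mL of activin A) and cells at passage 3 (cXENp3, after a passage on iMEF feeders and a return to gelatin). XENB1 and XEN5 are XEN lines grown in feeder-conditioned medium and gave 1 library each. The title of KO2.6 and its cell line field do not give the same number for the line, and the title's form is used here. Each line is a single line with 1 library per stage. A p-value of a stage comparison within the lines measures the spread between lines in their change. In the other comparisons it measures the spread between lines of a group, and with WT3 and Rescue3.34 pooled a difference between these counts as spread. The fits of KO against Zfp281-present lines hold the same lines at 3 stages without a line term. Rescue3.34 also derives from KO3.34, so the libraries in them are not independent. WT3 and Rescue3.34 are called the Zfp281-present lines below, and the KO and present groups hold 2 libraries each at a stage. The labels do not say what drives Zfp281 in the Rescue line.

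Values are FPKM (fragments per kilobase of transcript, scaled to the mapped fragments of the library), a level per transcript length, and differences are on the scale of log2(FPKM + 1), so that changes of genes with low levels come out too small. A gene was called at an adjusted p under 0.05 from limma with Benjamini-Hochberg adjustment over all genes tested. The sequencing depth is unknown. In bulk RNA, fewer cells that express a gene and less RNA per cell cannot be told apart.

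The labels were checked on marker genes. Zfp281 (XLOC_000413) had 25.1 to 38.6 FPKM in the Zfp281-present libraries and 0 to 3.96 FPKM in the KO libraries, and in the XEN lines 10.6 and 12.5 FPKM. The summed level of 6 ESC markers was 2575 to 3207 FPKM in ESCs, 60.8 to 106 FPKM at cXENp1, and 13.8 and 0.159 FPKM in XENB1 and XEN5. The 8 XEN markers summed to 1015 and 1318 FPKM in the XEN lines and to 932 and 1147 FPKM in the KO lines at cXENp3. In WT3 and Rescue3.34 at cXENp3 the XEN markers summed to 5.81 and 13.9 FPKM and the ESC markers to 3626 and 2109 FPKM, so those libraries had ESC and not XEN markers despite the name cXENp3. The descriptions of 3 ESC libraries, those of Rescue3.34, KO3.34 and WT3, begin with JH and those of the remaining 11 libraries with XH, and the labels do not say what this prefix stands for. Feeder fibroblast markers, 7 genes, summed to 1245 FPKM in Rescue3.34 at cXENp3 against 32.9 FPKM in WT3. KO3.34 and the KO2.6 line had 268 and 340 FPKM there, and XENB1 and XEN5 had 607 and 533 FPKM. Since the XEN lines had these markers too, the sum cannot be read as feeder cells alone. The part of such RNA in the cXENp3 levels of Rescue3.34, and in the comparisons that use them, was not tested.

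The 250 bases upstream of the start sites of the TET genes and of Dnmt3l are shown because these 4 genes had the largest differences between ESC and XEN lines among the 9. They are reference sequences of RefSeq on GRCm38.p6, read 5′ to 3′ on the gene's strand, and capitals mark CpG dinucleotides, the target of the enzymes themselves. All 9 genes were found in the RefSeq promoter table, with 16 start sites. The measured rows of Tet1 and Tet3 span 75445 and 79305 bp, shorter than the 82900 and 94836 bp of the RefSeq genes. Those rows may therefore not begin at the start sites shown. Tet1 lies on the minus strand at chr10:62887325-62887574, Tet2 on the minus strand at chr3:133544391-133544640, Tet3 on the minus strand at chr6:83441679-83441928, and the first Dnmt3l start on the plus strand at chr10:78042037-78042286.
Tet1: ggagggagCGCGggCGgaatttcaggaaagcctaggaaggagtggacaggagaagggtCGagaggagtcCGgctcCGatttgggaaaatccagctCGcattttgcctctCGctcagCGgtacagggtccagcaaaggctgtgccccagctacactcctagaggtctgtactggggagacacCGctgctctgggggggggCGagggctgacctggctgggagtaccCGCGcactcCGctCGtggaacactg
Tet2: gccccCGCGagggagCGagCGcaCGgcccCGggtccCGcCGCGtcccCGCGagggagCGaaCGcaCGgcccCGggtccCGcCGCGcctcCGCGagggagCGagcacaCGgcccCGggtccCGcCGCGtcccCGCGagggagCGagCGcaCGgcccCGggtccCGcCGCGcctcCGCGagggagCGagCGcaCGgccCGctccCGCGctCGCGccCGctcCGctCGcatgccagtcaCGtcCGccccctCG
Tet3: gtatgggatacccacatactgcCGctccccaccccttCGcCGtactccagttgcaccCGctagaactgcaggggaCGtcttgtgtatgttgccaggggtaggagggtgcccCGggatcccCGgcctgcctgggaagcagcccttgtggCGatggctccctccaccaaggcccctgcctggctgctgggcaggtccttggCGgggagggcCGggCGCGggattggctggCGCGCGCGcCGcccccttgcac
Dnmt3l: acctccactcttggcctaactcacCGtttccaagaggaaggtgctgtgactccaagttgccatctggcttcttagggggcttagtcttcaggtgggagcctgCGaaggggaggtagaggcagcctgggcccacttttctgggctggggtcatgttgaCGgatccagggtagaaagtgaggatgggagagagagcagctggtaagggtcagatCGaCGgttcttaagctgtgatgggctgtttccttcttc

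The Tet2 stretch held 51 CpG, and 0.067% of 32851 mouse promoters of the same length held as many. Tet1 held 15 and Tet3 held 17 CpG, where the median promoter held 6. The 3 Dnmt3l starts held 5, 4 and 3 CpG. The 3 Dnmt3a starts held 38, 40 and 15 CpG, Dnmt3b held 21, Tdg held 19, the 2 Uhrf1 starts held 10 and 30, and the 3 Dnmt1 starts held 2, 7 and 26. Dnmt3l was thus the only gene of the 9 with no start above the median. A G-rich motif of the kind Zfp281 is known to bind, GGGGAGGGG or its reverse complement CCCCTCCCC, was searched on both strands. It was absent from the 3 TET stretches and found 2 times at the third Dnmt3a start and 1 time at the third Dnmt3l start, against 5.75% of all promoters with a match. These are descriptions of the reference sequence, since no methylation or binding was measured.

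**Figure D1:**
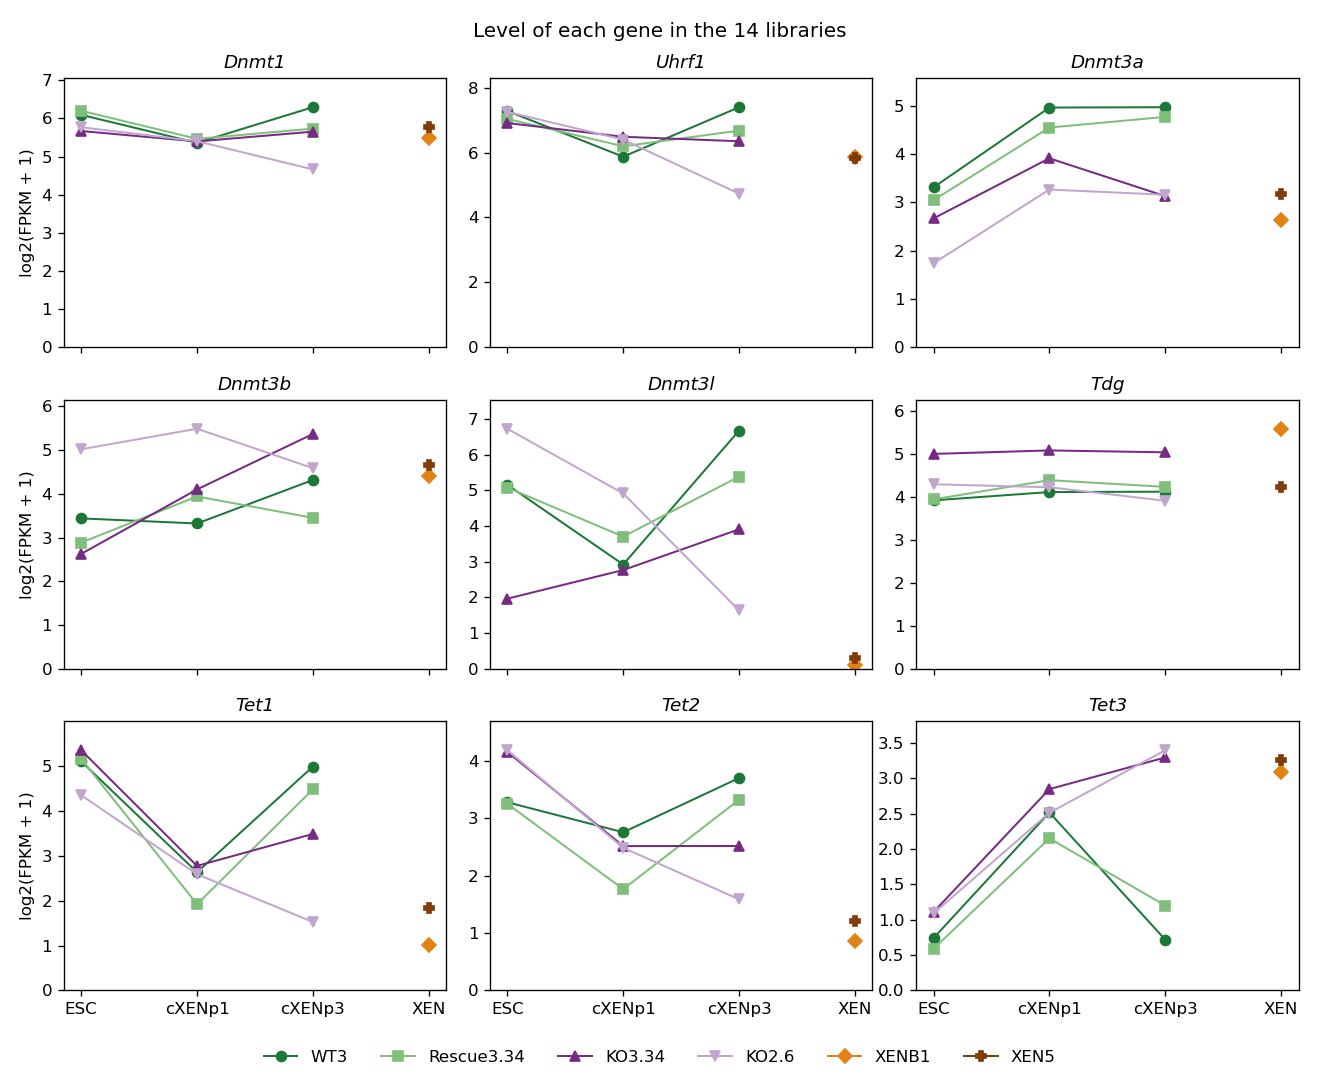
Level of the 9 genes, as log2(FPKM + 1) on the vertical axes, by stage on the horizontal axis, with 1 point per library and lines joining the libraries of a line. Tet1 and Tet2 were high in ESCs and low in XEN lines and Tet3 the reverse. At cXENp3 the KO lines had more Tet3 than the Zfp281-present lines.

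Tet1 (XLOC_001995, chromosome 10, 62267318 to 62342762, mm9) was the most abundant TET gene of ESCs. It had 33.5, 34.9, 40.0 and 19.4 FPKM in WT3, Rescue3.34, KO3.34 and KO2.6 as ESCs, and 5.21, 2.79, 5.85 and 5.02 FPKM at cXENp1. Its level at cXENp3 was 30.8 FPKM in WT3, 21.4 FPKM in Rescue3.34, 10.2 FPKM in KO3.34 and 1.88 FPKM in KO2.6. XENB1 and XEN5 had 1.03 and 2.55 FPKM. All 4 lines were thus low at cXENp1, without overlap with the ESCs. At cXENp3 the Zfp281-present lines were back within the range of the 4 ESC libraries, whose low end was KO2.6. Both still lay below the Zfp281-present ESCs, at 33.5 and 34.9 FPKM. KO2.6 at cXENp3 lay within the range of the XEN lines.

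Tet2 (XLOC_013566, chromosome 3, 133126641 to 133207354, mm9) had 8.73 and 8.55 FPKM in the WT3 and Rescue3.34 ESCs and 16.9 and 17.3 FPKM in the KO3.34 and KO2.6 ESCs. At cXENp1 it had 5.77, 2.40, 4.73 and 4.61 FPKM in WT3, Rescue3.34, KO3.34 and KO2.6. At cXENp3 it had 12.1, 9.04, 4.74 and 2.01 FPKM in the same order, and the XEN lines had 0.825 and 1.30 FPKM. The order of the KO and Zfp281-present lines was therefore opposite in ESCs and at cXENp3, and the groups overlapped at neither of these stages. At cXENp1 they overlapped.

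Tet3 (XLOC_017214, chromosome 6, 83312368 to 83391672, mm9) was the lowest TET gene of ESCs, with 0.668, 0.504, 1.15 and 1.13 FPKM in WT3, Rescue3.34, KO3.34 and KO2.6. At cXENp1 the same lines had 4.72, 3.43, 6.19 and 4.70 FPKM. At cXENp3 WT3 and Rescue3.34 had 0.642 and 1.30 FPKM and KO3.34 and KO2.6 had 8.80 and 9.52 FPKM. The XEN lines had 7.50 and 8.59 FPKM. At cXENp3 both KO lines were thus above both XEN lines, and the Zfp281-present lines were within or just above the ESC range.

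The make-up of the TET transcripts followed from these levels. Tet3 was 1.15% to 2.98% of the summed TET FPKM in the 4 ESC libraries, 30.1% to 39.8% at cXENp1, and 80.2% and 69.0% in XENB1 and XEN5. At cXENp3 it was 1.48% in WT3 and 4.08% in Rescue3.34 against 37.0% in KO3.34 and 71.0% in KO2.6. The summed TET level was 37.8 to 58.0 FPKM in ESCs, 8.62 to 16.8 FPKM at cXENp1, and 9.36 and 12.4 FPKM in the XEN lines. At cXENp1 each of the 3 TET genes took 27.8% to 39.8% of the sum, a make-up seen in none of the 4 ESC or 2 XEN libraries. Tet2 was 45.6% of the sum in the KO2.6 ESCs and 29.1% in the KO3.34 ESCs, against 20.3% and 19.4% in WT3 and Rescue3.34.

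**Figure D2:**
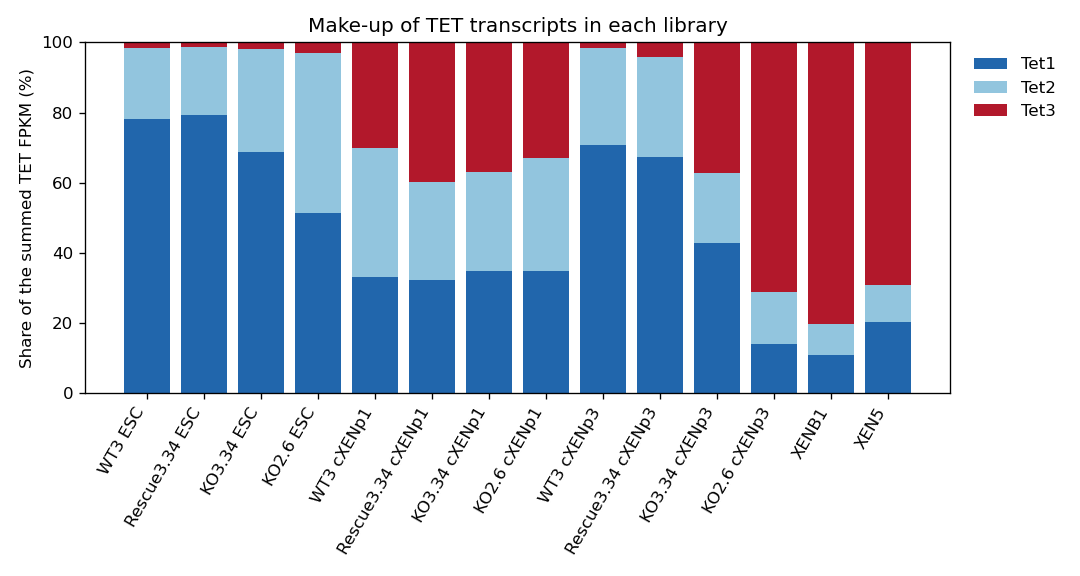
Share of Tet1, Tet2 and Tet3 in the summed TET FPKM, in percent on the vertical axis, for each of the 14 libraries. The Tet3 share was at most 2.98% in ESCs and at least 69.0% in the XEN lines, and at cXENp3 it was 37.0% and 71.0% in the KO lines.

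At passage 1 the lines were compared with their own ESCs, with line as a block. The fit gave all lines a common change at cXENp3, where KO and Zfp281-present lines differed. Its standard errors therefore include that later difference. Of the 9 genes 3 were called, where 28.5% of all 13191 genes tested were called. Tet1 fell by 2.52 on the log2 scale (SE 0.52, limma adjusted p = 0.0083) and Tet3 rose by 1.62 (SE 0.43, adjusted p = 0.0212), each in 4 of 4 lines. Dnmt3a rose by 1.48 (SE 0.23, adjusted p = 0.00242), also in 4 of 4 lines. Tet2 had a difference of -1.34 (SE 0.46), negative in 4 of 4 lines, and an adjusted p of 0.0539. Without line as a block Dnmt3a was not called (limma adjusted p = 0.0526) and Tet2 was (adjusted p = 0.0391). With the description prefix as a term none of the 9 was called, and Tet1, Tet3 and Dnmt3a then had differences of -2.87, 2.04 and 1.55 with adjusted p of 0.109, 0.134 and 0.0769 (limma). For the change from ESC that fit rests on KO2.6, the only line whose ESC and cXENp1 libraries share a prefix. It also draws on the cXENp3 libraries, so its values mix in later changes. From ESC to cXENp1 alone KO2.6 had differences of -1.77 for Tet1, 1.42 for Tet3 and 1.52 for Dnmt3a. Without KO3.34, Tet1 and Tet3 were no longer called, and without Rescue3.34 Tet3 was not.

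From ESC to cXENp3 the KO lines and the Zfp281-present lines took different courses. In the KO lines 5 of the 9 genes were called, where 48.3% of all genes were. Tet1 fell by 2.35 (SE 0.39, limma adjusted p = 0.00218), Tet2 fell by 2.12 (SE 0.33, adjusted p = 0.00162), and Tet3 rose by 2.25 (SE 0.28, adjusted p = 0.000744). Uhrf1 fell by 1.54 (adjusted p = 0.0204) and Dnmt3a rose by 0.94 (adjusted p = 0.0179), and without KO2.6 these were -0.56 and 0.46 with adjusted p of 0.302 and 0.211. In the Zfp281-present lines Dnmt3a alone was called, where 1.14% of all genes were. It rose by 1.69 (SE 0.26, adjusted p = 0.0388), and this call was lost when WT3 or Rescue3.34 was left out. The 3 TET genes had differences of -0.40, 0.25 and 0.29 there, with standard errors of 0.39, 0.33 and 0.28.

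From cXENp1 to cXENp3 the TET genes of the Zfp281-present lines went back. Of the 9 genes 3 were called, where 10.5% of all genes were. Tet1 rose by 2.46 (limma adjusted p = 0.00888), Tet2 rose by 1.25 (adjusted p = 0.0467) and Tet3 fell by 1.38 (adjusted p = 0.0214), and the 3 calls were lost when WT3 or Rescue3.34 was left out. All 6 ESC markers rose in the same comparison. In the KO lines none of the 9 was called by limma, where 22.5% of all genes were, and 1 of them, Tet3, had an unadjusted p under 0.05. Without KO3.34 2 were called in the KO lines, Uhrf1 at -1.67 and Dnmt3l at -3.27.

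The XEN lines marked the end state. Against the 4 ESC libraries 5 of the 9 genes were called, where 41.9% of 12372 genes were. Dnmt3l fell by 4.52 (SE 1.09, limma adjusted p = 0.0124), Tet1 fell by 3.57 (SE 0.36, adjusted p = 0.000244), Tet2 fell by 2.69 (SE 0.37, adjusted p = 0.000975) and Uhrf1 fell by 1.27 (SE 0.19, adjusted p = 0.00148). Tet3 rose by 2.29 (SE 0.26, adjusted p = 0.000432). The Dnmt3l call was lost without either XEN line, with adjusted p of 0.0828 and 0.0744 and differences of -4.41 and -4.63. Dnmt1, Dnmt3a, Dnmt3b and Tdg were not called, with differences of -0.30, 0.21, 1.04 and 0.62.

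KO and Zfp281-present lines were then compared at each stage. In ESCs none of the 9 genes was called by limma, where 1.97% of all genes were, and 2 had an unadjusted p under 0.05. These were Dnmt3a, with a difference of -0.97 (adjusted p = 0.136), and Tet2, with 0.91 (SE 0.37, adjusted p = 0.198). For Tet2 the KO3.34 ESCs exceeded Rescue3.34 by 0.91 and WT3 and Rescue3.34 differed by -0.03. At cXENp1 none was called, where 0.485% of all genes were, and Dnmt3a alone had an unadjusted p under 0.05, with a difference of -1.17 (adjusted p = 0.187).

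At cXENp3 6 of the 9 genes were called between KO and Zfp281-present lines, where 41.9% of all genes were. Tet3 was higher in the KO lines by 2.39 (SE 0.26, limma adjusted p = 0.000241). Tet1 was lower by 2.23 (SE 0.56, adjusted p = 0.0111), Tet2 by 1.46 (SE 0.37, adjusted p = 0.0113), Dnmt3a by 1.73 (SE 0.33, adjusted p = 0.00317), Uhrf1 by 1.50 (SE 0.44, adjusted p = 0.0217) and Dnmt1 by 0.86 (SE 0.30, adjusted p = 0.0423). Dnmt3l had a difference of -3.26 (SE 1.33) and an adjusted p of 0.0733. Without WT3 only Tet3 was called, without Rescue3.34 3 genes were, Tet3, Tet2 and Dnmt3a, and without KO3.34 7 were. Without KO2.6 6 were called, Tet3, Tet1 (at -1.25), Dnmt3a, Dnmt3b, Dnmt3l and Tdg, and Tet2 was not (-0.996, adjusted p = 0.108). KO3.34 against Rescue3.34, the knockout and its own rescue, gave 2.09 for Tet3, -1.64 for Dnmt3a, -0.996 for Tet1 and -0.81 for Tet2. These are single differences with no test. The feeder fibroblast markers summed to 1245 FPKM in that Rescue3.34 library and 268 FPKM in KO3.34, and their part here was not tested.

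**Figure D3:**
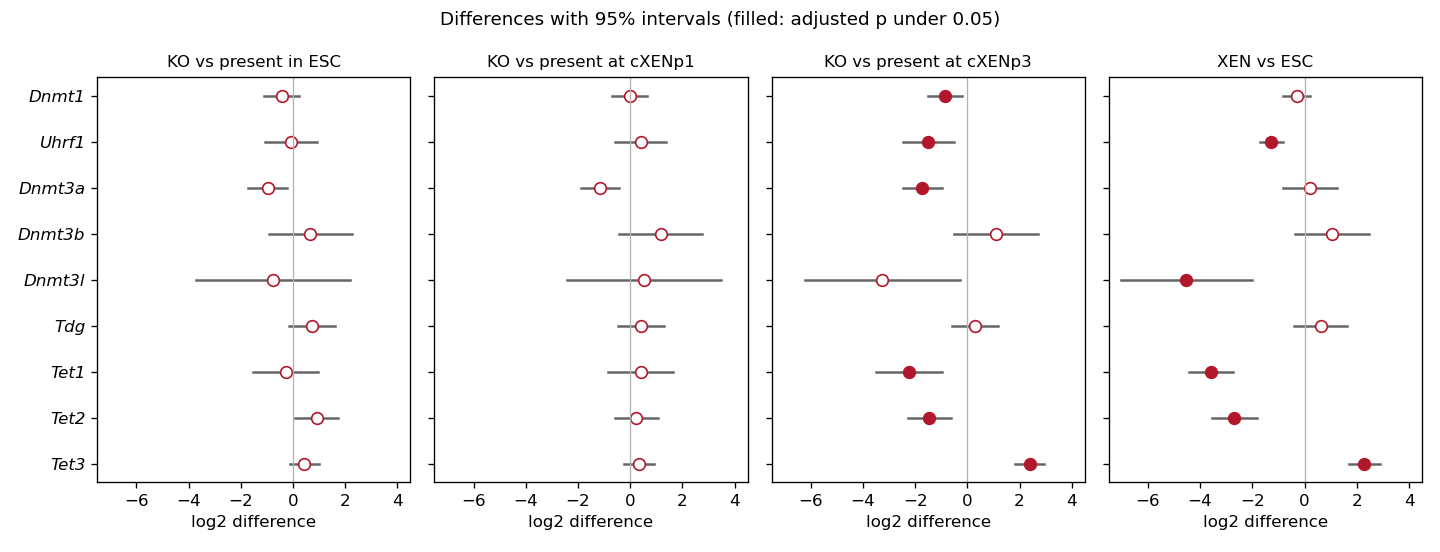
Differences of the 9 genes on the log2(FPKM + 1) scale, horizontal axis, with 95% intervals from limma, for KO against Zfp281-present lines at the 3 stages and for XEN lines against ESCs. Filled points had an adjusted p under 0.05. None was filled in ESCs or at cXENp1, where 1.97% and 0.485% of all genes were called. At cXENp3 6 were filled and in the comparison with XEN lines 5, where 41.9% of all genes were called in each.

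An interaction term tested whether the KO difference itself moved between stages. Between ESC and cXENp3 2 of the 9 genes were called, where 22.6% of all genes were. The Tet2 difference moved by -2.37 (SE 0.52, limma adjusted p = 0.0139), from 0.91 to -1.46, and the Tet3 difference by 1.95 (SE 0.36, adjusted p = 0.00795), from 0.43 to 2.39. Tet1 moved by -1.95 (SE 0.79, adjusted p = 0.101), and with line as a block it was called too (adjusted p = 0.039), for a count of 3. The Tet2 call was lost without WT3, Rescue3.34 or KO2.6 and the Tet3 call without WT3 or Rescue3.34. Between ESC and cXENp1 none of the 9 was called by limma, none had an unadjusted p under 0.05, and 0.0379% of all genes were called. Between cXENp1 and cXENp3, a comparison chosen after the data were seen, Tet3 was called, where 11.4% of all genes were. Its KO difference moved by 2.04 (SE 0.36, adjusted p = 0.0108), and that call was lost when WT3, Rescue3.34 or KO2.6 was left out. Tet1 and Tet2 moved by -2.64 and -1.70 there, with adjusted p of 0.0573 and 0.0599, and with line as a block both were called, at 0.0258 and 0.0492.

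Against the XEN lines none of the 9 genes was called in the KO lines at cXENp3 by limma, where 4.12% of 13386 genes were, and Tet2 alone had an unadjusted p under 0.05. The intervals of the differences were wide. Tet3 differed by 0.17 (95% interval -0.39 to 0.72), Tet2 by 1.02 (0.22 to 1.82, adjusted p = 0.149), Tet1 by 1.08 (-0.16 to 2.32) and Dnmt3l by 2.57 (-0.21 to 5.34, adjusted p = 0.281). Without KO2.6 the Dnmt3l difference was called, at 3.70 (adjusted p = 0.0151). The KO lines at cXENp3 still held ESC marker RNA, 415 FPKM in KO3.34 and 91.7 FPKM in KO2.6 summed over 6 genes, and its part in the Tet1, Tet2 and Dnmt3l levels was not tested. KO3.34, with the higher sum, also had the higher Tet1, Tet2 and Dnmt3l.

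Among the de novo enzymes, Dnmt3a (XLOC_004072, chromosome 12, 3806980 to 3914443, mm9) separated the lines at every stage. It had 8.91, 7.25, 5.35 and 2.34 FPKM in the WT3, Rescue3.34, KO3.34 and KO2.6 ESCs, and 30.1, 22.4, 14.04 and 8.60 FPKM at cXENp1 in the same order. At cXENp3 the levels were 30.3, 26.2, 7.73 and 7.91 FPKM, and XENB1 and XEN5 had 5.19 and 7.96 FPKM. Both KO lines lay below both Zfp281-present lines at all 3 stages, although the difference was called only at cXENp3. The high levels of the Zfp281-present lines at cXENp3 lay close to their cXENp1 levels and above every ESC level.

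Dnmt3b (XLOC_011355, chromosome 2, 153475185 to 153513466, mm9) was uneven between the KO lines. KO2.6 had 31.4, 43.9 and 23.1 FPKM as ESCs, at cXENp1 and at cXENp3, and KO3.34 had 5.18, 16.2 and 40.3 FPKM. WT3 had 9.86, 9.01 and 18.9 FPKM and Rescue3.34 had 6.39, 14.4 and 9.94 FPKM. XENB1 and XEN5 had 20.2 and 24.4 FPKM. The KO lines were both above the Zfp281-present lines at cXENp1 and cXENp3, but Dnmt3b was called in none of the 13 comparisons with all lines kept. Without KO2.6 its rise from ESC to cXENp3 in the remaining KO line, 2.74, was called (limma adjusted p = 0.0142), with the lone line taken to vary like the others. Also without KO2.6, Dnmt3b was called higher in XEN lines than in ESCs (1.55, limma adjusted p = 0.00404). The remaining ESC libraries then all had the JH prefix and the XEN lines XH, so stage and prefix cannot be told apart there. With the prefix as a term and all lines kept, that difference was -0.48 and not called. In KO3.34 against Zfp281-present lines at cXENp3 the difference was 1.49. Without KO3.34 the difference of the KO2.6 ESCs from the Zfp281-present ESCs was 1.86, where KO2.6 had XH and the others JH.

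The balance of the de novo enzymes differed more than their sum. Dnmt3b was 38.5% and 27.5% of the summed Dnmt3a and Dnmt3b FPKM in WT3 and Rescue3.34 at cXENp3, against 83.9% and 74.5% in KO3.34 and the KO2.6 line and 79.6% and 75.4% in XENB1 and XEN5. The sum at cXENp3 was 49.2 and 36.2 FPKM in the Zfp281-present lines and 48.1 and 31.0 FPKM in the KO lines, which overlap. In ESCs the Dnmt3b share was 46.9% to 52.5% in 3 lines and 93.1% in KO2.6. That line already had XEN markers summing to 47.8 FPKM as ESCs, against 1.73 to 6.38 FPKM in the other 3, and the part of such cells in its Dnmt3b level was not tested.

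**Figure D4:**
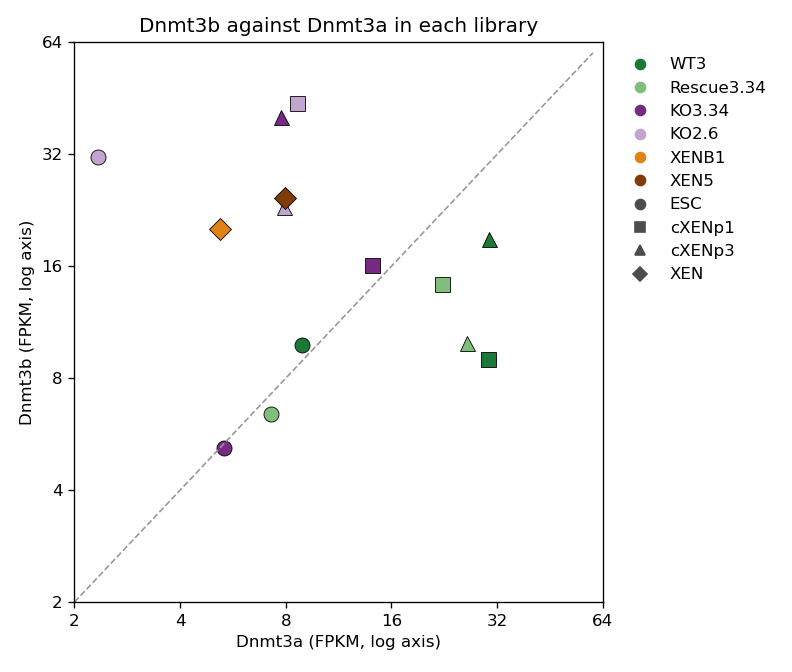
Dnmt3b against Dnmt3a in FPKM on log axes, 1 point per library, with color for the line, shape for the stage and a dashed line at equal levels. The XEN lines and the KO lines at cXENp3 lay above the dashed line, with Dnmt3b at 74.5% to 83.9% of the sum, and the Zfp281-present lines at cXENp3 lay below it.

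Dnmt3l (XLOC_001519, chromosome 10, 77492767 to 77526360, mm9) had the widest range of the 9 genes as a ratio of the highest to the lowest library. It had 34.6, 32.7, 2.90 and 105 FPKM in the WT3, Rescue3.34, KO3.34 and KO2.6 ESCs, 6.57, 12.01, 5.80 and 29.1 FPKM at cXENp1 and 101, 40.7, 13.99 and 2.11 FPKM at cXENp3. The XEN lines had 0.0691 and 0.245 FPKM, the lowest 2 of the 14. The KO ESCs thus lay on both sides of the Zfp281-present ESCs, and KO2.6 went from the highest ESC level to the lowest cXENp3 level. The row spans 33594 bp, longer than the 21336 bp of the RefSeq gene, and overlaps the row of Aire, which had at most 3.58 FPKM, so low Dnmt3l values are uncertain.

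The maintenance pair was expressed in every library, at 24.3 FPKM or more. Dnmt1 (XLOC_021501, chromosome 9, 20711650 to 20764332, mm9) had 67.3, 72.6, 49.9 and 53.5 FPKM in the WT3, Rescue3.34, KO3.34 and KO2.6 ESCs and 40.1, 43.2, 41.1 and 41.3 FPKM at cXENp1. At cXENp3 the levels were 77.5, 52.2, 49.3 and 24.3 FPKM, and in the XEN lines 44.0 and 53.6 FPKM. The 4 lines were closest together at cXENp1 (41.4 ± 1.27 FPKM, SD, n = 4) and spread apart at cXENp3, where KO2.6 was lowest. Without KO2.6 the cXENp3 difference of Dnmt1 was -0.36 and not called (limma adjusted p = 0.319).

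Uhrf1 (XLOC_008609, chromosome 17, 56442760 to 56462909, mm9) had 155, 130, 119 and 151 FPKM in the WT3, Rescue3.34, KO3.34 and KO2.6 ESCs and 57.6, 72.2, 88.7 and 83.4 FPKM at cXENp1. At cXENp3 it had 168, 101, 80.5 and 25.6 FPKM, and 57.1 and 56.1 FPKM in the XEN lines. ESCs did not overlap with cXENp1 or XEN libraries. Without KO2.6 its cXENp3 difference was -0.69 and not called (limma adjusted p = 0.149). Proliferation genes moved with it: 14 S phase and mitosis genes summed to 549 FPKM in KO2.6 at cXENp3, 1429 FPKM in KO3.34, and 2511 and 1691 FPKM in WT3 and Rescue3.34. Of these 14 genes 7 were lower in KO than in Zfp281-present lines at cXENp3 and none higher, where 41.9% of all genes were called in either direction (median -0.89, against 0.01 over all genes). Among them were Mcm6 at -2.12, Mcm3 at -1.97 and Top2a at -1.60. Their part in the Uhrf1 and Dnmt1 differences was not tested.

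Tdg (XLOC_001608, chromosome 10, 82092583 to 82153395, mm9) was called in none of the 13 comparisons with all lines kept. It had 31.0, 32.9 and 31.9 FPKM in KO3.34 at the 3 stages and 14.05 to 19.96 FPKM in the other 9 libraries of the course, Rescue3.34 included. XENB1 had 47.1 FPKM and XEN5 17.8 FPKM. KO3.34 was thus above every other line of the course at each stage. Without KO2.6 its cXENp3 difference from the Zfp281-present lines, 0.86 in place of 0.30, was called (limma adjusted p = 0.0217), and without KO3.34 the difference was -0.27. The row spans 60813 bp, longer than the 20986 bp of the RefSeq gene, RefSeq also lists near-copies of Tdg, and reads could be split between them, so these values are uncertain.

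Across the 14 libraries, which share lines and stages, the levels of Tet1 and Tet2 had a Pearson correlation of 0.92, and those of Tet3 with Tet1 and Tet2 of -0.88 and -0.82. Uhrf1 and Dnmt1 had 0.86. Dnmt3a had no correlation with any other member beyond -0.27. The genes most like each member, among 11370, were Lmbrd1 (0.99) for Tet3, 1700019D03Rik (0.97) and Urb2 (0.97) for Tet1, and Kat6b (0.96) and Calca (0.96) for Tet2. They were Mcm5 (0.97) and Orc1 (0.96) for Uhrf1, Rbm10 (0.96) and Pold1 (0.95) for Dnmt1, Ppp6r1 (0.95) and Mospd3 (0.90) for Dnmt3b, Prdx6 (0.94) and Ank2 (0.90) for Dnmt3a, and Dnajc11 (0.93) and Ebna1bp2 (0.90) for Dnmt3l. For Tdg the highest were 0.84 with Rpph1 and 0.81 with Pop4.

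Other genes of the pathway were read from lists of methyl-CpG readers, excision repair, and cofactors and regulators. Mbd2, a methyl-CpG binding protein, was the reader with the largest change in ESC to cXENp1, KO cXENp3 and XEN comparisons with ESC. It had 6.58 to 14.5 FPKM in ESCs, 21.3 to 26.1 FPKM at cXENp1, 12.2 and 16.8 FPKM in WT3 and Rescue3.34 at cXENp3, 37.5 and 54.6 FPKM in KO3.34 and the KO2.6 line at cXENp3, and 40.1 and 39.8 FPKM in the XEN lines. It rose by 1.29 from ESC to cXENp1 (limma adjusted p = 0.0149) and was 2.06 higher in XEN lines than in ESCs (adjusted p = 0.00172). In XEN lines against ESCs 2 of 9 readers were higher and none lower, a smaller share than the 41.9% of all genes called in either direction. Between KO and Zfp281-present lines at cXENp3 Zbtb4, a zinc finger reader, was higher by 1.60 and Mbd2 by 1.59, and Mbd4, a glycosylase with a methyl-CpG binding domain, was lower by 0.95. These were 3 of 9 readers, where 41.9% of all genes were called.

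Of 10 excision repair genes 4 were lower and 1 higher in XEN lines than in ESCs, a share near the 41.9% of all genes called (median -0.94, against -0.02 over all genes). The 4 included Parp1, the poly(ADP-ribose) polymerase of strand-break repair, at -2.73, Neil2, a glycosylase, at -2.41, and Apex1, the abasic site endonuclease, at -1.94. From ESC to cXENp1 4 of 10 fell and none rose, where 28.5% of all genes were called, led by Neil2 at -2.06 and Ung at -1.98. At cXENp3 4 of 10 were lower in KO than in Zfp281-present lines and none higher, near the 41.9% of all genes called, among them Parp1 at -2.32, Ung, the uracil glycosylase, at -1.73 and Neil2 at -1.42.

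Of 19 cofactors and regulators tested, of 20 in the list, 9 were lower in XEN lines than in ESCs and none higher, near the 41.9% of all genes called in either direction (median -0.91, against -0.02 over all genes). Prdm14, a repressor of Dnmt3b in naive ESCs, was lower by 3.83, Dppa3, which shields DNA from Uhrf1-directed methylation, by 2.41, and Cxxc5 by 2.14. At cXENp3 7 of 19 were lower in KO than in Zfp281-present lines and none higher, again near the 41.9% of all genes called (median -0.40, against 0.01 over all genes), with Prdm14 at -3.40, Cdca7, a partner of the remodeller Hells, at -2.72, and Zfp57, which keeps methylation at imprinted loci, at -2.19. Prdm14 had 8.02 to 17.5 FPKM in ESCs, 0 to 0.119 FPKM at cXENp1, 19.05 and 11.4 FPKM in WT3 and Rescue3.34 at cXENp3, and 1.10 and 0.0719 FPKM in KO3.34 and the KO2.6 line. Both XEN lines list it at 0. The ESC and cXENp1 libraries did not overlap, and neither did the KO and Zfp281-present lines at cXENp3.

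Germline genes known to be held silent by promoter methylation were read as a further list. Methylation was not measured, so their RNA levels are not a readout of it. Of 13 listed, 11 were tested. From ESC to cXENp1 5 rose and none fell, where 28.5% of all genes were called in either direction (median 0.73, against 0.00 over all genes), with Taf7l at 2.30 (limma adjusted p = 0.000635), Slc25a31 at 1.84 and Mael at 1.52. Taf7l had 1.37 to 1.53 FPKM in ESCs and 8.33 to 12.5 FPKM at cXENp1, without overlap. In XEN lines against ESCs 8 fell and none rose, where 41.9% of all genes were called (median -2.20), with Tex19.1 at -4.12, Dazl at -3.69 and Ddx4 at -3.21.

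At cXENp3 7 of the 11 germline genes were lower in KO than in Zfp281-present lines and none higher, where 41.9% of all genes were called (median -0.99), led by Ddx4 at -2.47, Mael at -2.38 and Dazl at -2.11. The KO lines were not at the level of the XEN lines for Tex19.1 and Taf7l. Tex19.1 had 11.3 and 12.6 FPKM in KO3.34 and the KO2.6 line at cXENp3 and 0.239 and 0.215 FPKM in XENB1 and XEN5, a difference of 3.40 (limma adjusted p = 7.91e-06). Taf7l had 1.07 and 3.79 FPKM and was listed at 0 in both XEN lines, with a difference of 1.65 (adjusted p = 0.0231). The list's summed level was 20.4 FPKM in both KO lines at cXENp3, 56.5 and 61.1 FPKM in the Zfp281-present lines, 41.0 to 105 FPKM in ESCs and 87.3 to 108 FPKM at cXENp1, against 0.587 and 0.638 FPKM in the XEN lines.

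**Figure D5:**
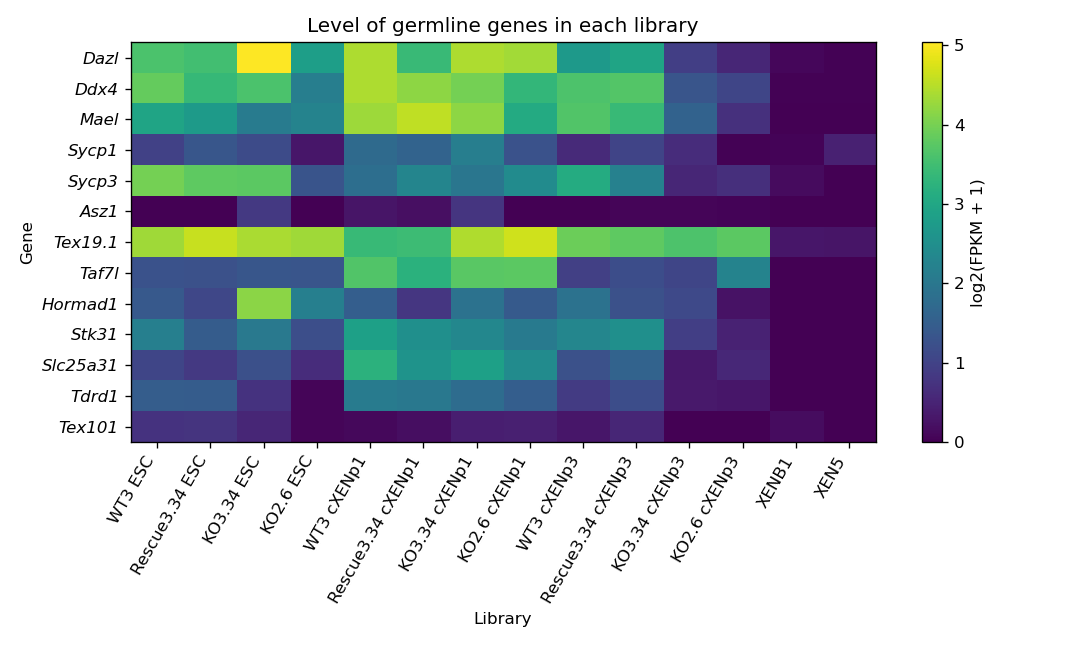
Heat map of the level of 13 germline genes, rows, in the 14 libraries, columns, with color for log2(FPKM + 1). Taf7l and Slc25a31 were highest in the 4 cXENp1 libraries, and Tex19.1 remained at 11.3 and 12.6 FPKM in the KO lines at cXENp3 while the XEN lines had 0.239 and 0.215 FPKM.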

How the data were processed

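The 14 libraries are poly(A) RNA-seq with paired reads of 150 bases, per the labels' protocols. The authors deposited 1 table of FPKM values per gene and library, and the submitters' processing notes name STAR 2.5.3, Cufflinks 2.1.1 and mm9 without roles. No step of single reads was seen in the low values, so the depth is unknown and no counting interval was computed. No column of the table was left unused.

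The FPKM values were analysed as log2(FPKM + 1), over genes with at least 2 fitted libraries at 1 FPKM or more, with limma 3.58.1 (R 4.3.3, lmFit and eBayes with trend). Every adjusted p is a Benjamini-Hochberg value from limma over all genes of its comparison, called under 0.05. Stages were compared over all 12 course libraries, blocked by line, since the labels give the same line at each stage. The fit for cXENp1 against ESC had a common cXENp3 term for all lines. The other stage fits of the course had separate terms for KO and Zfp281-present lines. KO against Zfp281-present lines and the interactions used 6 groups of 2 libraries, the comparison of KO lines with XEN lines 7 groups of 2, and XEN against ESC 6 libraries. These fits had no line term. The labels name no separate cultures. Deviations of libraries of 1 line from the mean of their stage had correlations of 0.034 to 0.397 between stages. Between different lines these were -0.488 to 0.405, so the ranges overlap.

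The members and the lists were chosen with earlier results of these data known, and the interaction between cXENp1 and cXENp3 was chosen after seeing the data. The text names the 9 members, Zfp281, up to 3 called genes with the largest change per list and comparison, and the 2 genes most correlated with each member, of which 1 is not reported here. The fits were tested on simulated data. A simulated log2 change of 2 was given to 200 genes, all with a mean log2(FPKM + 1) above 3. The fits recovered 86.5% for cXENp1 against ESC, 85% for KO cXENp3 against ESC and 81.5% for KO against Zfp281-present lines at cXENp3. They recovered 73% for XEN against ESC, 69% for the cXENp3 interaction and 84.5% for KO cXENp3 against XEN. Among 11867 to 12710 genes, 6 to 15 calls were false. Tet2 and Tet3 had means below 3 over the course libraries, and fewer genes were changed than were called in the data. These shares may therefore not hold for them.

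Promoter sequences are those of RefSeq on GRCm38.p6. Gene positions are those of the table, in mm9, counted from 1. Alternatives were a pseudocount of 0.1, quantile normalization, filters on a mean of 5 or on any value above 0, a minimum log2 change of 1, eBayes without trend, the description prefix as a term, the line block added or removed, and each line left out.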

Additional observations from a re-analysis of the deposited data

Results flagged for a closer look

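From ESC to cXENp3 the difference between KO and Zfp281-present lines was called as changed for 2 of the 9 genes. Of all genes 22.6% were called there. The Tet2 difference moved by -2.37 (limma adjusted p = 0.0139). The KO lines were higher in ESCs, where that difference was not called, and lower at cXENp3. The Tet3 difference moved by 1.95 from ESC to cXENp3 (limma adjusted p = 0.00795). From cXENp1 to cXENp3 it moved by 2.04 (adjusted p = 0.0108), where 11.4% of all genes were called. Each of these calls was lost when single lines were left out, WT3 and Rescue3.34 among them. A Dixon test compared the gap beside the most extreme library with the range of its group. It was run for the 9 genes in ESCs and at cXENp1, 18 groups of 4 libraries, and flagged none. With 4 libraries it flags only very large gaps, so it cannot show that no library stood apart. Dnmt3l in the KO3.34 ESCs, at 2.90 FPKM against 32.7 to 105 FPKM in the other ESCs, was not flagged. The cXENp3 and XEN libraries were not examined in this way.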

How the results depend on the processing

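Of the member differences under alternatives, 1246 kept their direction and their side of the threshold, 51 lost a call, 34 gained one and 51 changed sign, none of these last being called under either setting. The counts of members called that moved by over 1.5 times were these. From ESC to cXENp1 the count was 0 in place of 3 with the prefix term, and 1 to 3 with each line left out. In Zfp281-present lines from ESC to cXENp3 it was 0 in place of 1 with the filter at any value above 0 and with the prefix term, and 0 to 1 with a line left out. From cXENp1 to cXENp3 it was 1 in place of 3 with the filter at any value above 0 and 0 to 4 with a line left out. In KO lines from cXENp1 to cXENp3 it was 0 to 2 with a line left out. Between KO and Zfp281-present lines, leaving out a line gave 0 to 2 in ESCs, 0 to 1 at cXENp1 and 1 to 7 at cXENp3, and 0 to 1 for KO cXENp3 against XEN. For the cXENp3 interaction the count was 1 in place of 2 with the filter at a mean of 5 and 0 to 5 with a line left out, and with the replicate block it was 3. For the interaction between cXENp1 and cXENp3 it was 0 in place of 1 at a mean of 5, 3 with quantile normalization, 2 with the prefix term, 3 with the replicate block and 0 to 6 with a line left out. Smaller moves were 4 with quantile normalization and 2 with the filter at a mean of 5 from ESC to cXENp1, 4 to 7 in place of 5 for KO cXENp3 against ESC, 4 to 6 in place of 5 for XEN against ESC, 5 to 7 in place of 6 for the KO difference at cXENp3 with all lines kept, and 2 in place of 3 for Zfp281-present lines from cXENp1 to cXENp3 with a pseudocount of 0.1, the filter at a mean of 5 or no replicate block. The filter at a mean of 5 removed Tet3 before testing, so its call could not be counted there. The 8 members tested under that filter kept their direction and their side of the threshold. For the other moves, fewer libraries remain in the left-out fits, and otherwise the cause was not tested.

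For the differences that changed sign, the values under the alternative, or their range with each line left out, were as follows. The comparison of cXENp1 against ESC gave Dnmt3b -0.090 and Tdg -0.16 with the prefix term. KO cXENp3 against ESC gave Dnmt3l -5.09 to 1.94, Tdg -0.38 to 0.037 and Dnmt3b -0.43 to 2.74 with a line left out. Zfp281-present cXENp3 against ESC gave Dnmt3b -1.37, Dnmt3l -3.91, Tet2 -0.26 and Tdg -0.039 with the prefix term, and Dnmt1 -0.47 to 0.20, Uhrf1 -0.36 to 0.12 and Tet3 -0.023 to 0.61 with a line left out. KO cXENp3 against cXENp1 gave Dnmt1 -0.74 to 0.26, Dnmt3l -3.27 to 1.14, Tet1 -1.06 to 0.71, Tet2 -0.90 to 0.002 and Dnmt3b -0.90 to 1.27 with a line left out. Zfp281-present cXENp3 against cXENp1 gave Dnmt3a -0.034 with quantile normalization, and Tdg -0.16 to 0.009 and Dnmt3b -0.49 to 0.99 with a line left out. XEN against ESC gave Dnmt3b -0.48 with the prefix term, and Dnmt3a -0.11 to 0.47 and Tdg -0.061 to 1.30 with a line left out. The KO difference in ESCs gave Dnmt3b -0.54 and Tet1 0.22 with the prefix term, and Dnmt3b -0.54 to 1.86, Tet1 -0.78 to 0.22, Dnmt3l -3.15 to 1.61 and Uhrf1 -0.25 to 0.092 with a line left out. The KO difference at cXENp1 gave Dnmt3l -0.55 to 1.60, Tdg -0.027 to 0.83, Dnmt1 -0.065 to 0.039 and Tet2 -0.26 to 0.74 with a line left out. The KO difference at cXENp3 gave Tdg -0.27 to 0.86 with a line left out. The cXENp1 interaction gave Tet3 -0.25 to 0.069, Dnmt3l -0.009 to 2.60 and Dnmt3b -0.083 to 1.09 with a line left out. The cXENp3 interaction gave Dnmt1 -0.97 to 0.12, Dnmt3l -6.00 to 1.03 and Dnmt3b -1.15 to 2.02 with a line left out. The interaction between cXENp1 and cXENp3 gave Dnmt3b -1.15 to 1.015 and Tdg -0.24 to 0.030 with a line left out. KO cXENp3 against XEN gave Dnmt1 -0.97 to 0.022, Uhrf1 -1.11 to 0.50, Tdg -1.11 to 0.25 and Dnmt3a -0.022 to 0.51 with a line left out. The cause was not tested.

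Quantile normalization moved the median of all genes from 0.01 to -0.11 for the KO difference at cXENp3 and from -0.003 to -0.149 for KO cXENp3 against ESC. There Dnmt3a, at 0.59, was no longer called (limma adjusted p = 0.0692). Groups of 2 lines, an unknown depth and the overlap of the prefix with the ESC stage limit these results.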

Other observations

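Markers of other lineages were low or uneven beside these levels. The 4 primed epiblast markers, which mark the embryonic lineage after implantation, summed to 7.27 to 15.8 FPKM in ESCs, 9.34 to 45.2 FPKM at cXENp1, 13.1 to 36.8 FPKM at cXENp3, and 0.247 and 0.733 FPKM in the XEN lines. The 5 trophoblast markers summed to 6.55 FPKM in the KO2.6 ESCs and to 63.6 to 122 FPKM in the other 3 ESC libraries, with 2.17 and 3.21 FPKM in the XEN lines. Nsd1, a histone H3 lysine 36 methyltransferase whose mark is known to recruit Dnmt3a, had 1.57 and 6.32 FPKM in XENB1 and XEN5 and 11.8 FPKM or more in the 12 libraries of the course. It was 1.89 higher in the KO lines at cXENp3 than in the XEN lines (limma adjusted p = 0.0332), the 1 cofactor of 19 called in that comparison, where 4.12% of all genes were called.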
